A study of Homo sapiens with 12 samples.

Results

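The 9 genes described here belong to the NRF2 antioxidant system, and they were followed in a human colon epithelial cell line exposed to TNF-α, alone or with a second treatment. They were chosen by name (NFE2L2, KEAP1, HMOX1, NQO1, GCLC, GCLM, TXNRD1, SRXN1 and OSGIN1), each had 1 row in the expression table, and they are 9 of its 58735 genes. The 12 libraries hold poly(A)-selected RNA of NCM460, a cell line derived from normal human colon mucosa, with 4 groups and 3 libraries per group. Wild-type cells were kept in medium, treated with TNF-α, or treated with TNF-α and 5-OH-TMT, an indole alkaloid that the labels name Bufotenidine. In the other group TNF-α was given to cells labelled HTRA2 knockdown. HTRA2, a serine protease of the mitochondrial intermembrane space, is the protein that the study examined as a target of 5-OH-TMT. The comparisons ask how the 9 genes responded to TNF-α, to 5-OH-TMT added to TNF-α, and to knockdown of HTRA2 under TNF-α. The study used small interfering RNAs against HTRA2 and describes its knockdown comparison as one with a control siRNA. The labels name no library with a control siRNA and do not give which siRNA each knockdown library received, so whether the TNF-α libraries were transfected is not known from them. How much TNF-α the cells of these libraries received, and for how long, is not given in the sources used here. Nothing in the labels says that libraries of a group came from separate cultures, so the p-values below measure the spread between these libraries, which may be technical.

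NRF2, the product of NFE2L2, is a transcription factor that is controlled mainly through its breakdown. In unstressed cells KEAP1 binds NRF2 and presents it to the CUL3-RBX1 ubiquitin ligase for destruction. Oxidants and electrophiles modify cysteines of KEAP1, and NRF2 escapes and enters the nucleus. There it pairs with a small MAF protein and binds antioxidant response elements (AREs) near its target genes. The targets make and recycle glutathione and thioredoxin, reduce quinones and break down heme. In the intestine, mice without this factor are known to suffer more severe chemically induced colitis. Because NRF2 is regulated as a protein, the mRNA of NFE2L2 is not a measure of its activity.

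Short windows at the promoters of the members show where such elements could lie close to the start. Sequence farther from the start was not searched, so a window without a match does not mean a gene without an ARE. RefSeq windows (GRCh38.p14) from 250 bases before to 50 bases after an annotated start were matched by symbol for 8 of the 9 members, all but HMOX1, with 11 windows between them. The core ARE was searched as TGACNNNGC on the gene's strand and as GCNNNGTCA on the other, and 13.3% of all 35116 RefSeq windows of 300 bases held a match. Among the members, 4 windows of 3 genes did (GCLM, TXNRD1 and KEAP1). They held 1 match in GCLM, 3 in TXNRD1 and 2 in KEAP1. One match per gene is printed, for TXNRD1 and KEAP1 the one most like that of GCLM, since GCLM and TXNRD1 are the genes called lower with HTRA2 knockdown below and GCLM and KEAP1 held the same 9 letters. The window of OSGIN1, the gene with the widest range over the groups when all libraries are used, held no ARE core. It is printed for its match to the AP-1 motif TGANTCA, which reads alike on both strands. This motif was present in 1 of the 11 member windows and in 7.71% of all windows, and its search was not part of the plan. The match is in capitals in each line, written 5′ to 3′ on the strand of the gene.

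GCLM chr1:93909446-93909474 (minus strand): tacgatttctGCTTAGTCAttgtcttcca
TXNRD1 chr12:104286920-104286948 (plus strand): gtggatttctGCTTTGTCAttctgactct
KEAP1 chr19:10502784-10502812 (minus strand): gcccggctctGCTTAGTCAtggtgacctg
OSGIN1 chr16:83953103-83953189 (plus strand): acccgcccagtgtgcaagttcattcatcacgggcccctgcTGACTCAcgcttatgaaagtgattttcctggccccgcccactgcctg

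All 3 ARE matches shown lie on the opposite strand of the gene. They begin 34 bases before the RefSeq start in GCLM, 102 in TXNRD1 and 31 in KEAP1, and in GENCODE 29 each touches an exon of a transcript of that gene. Aligned on the match with 10 bases on each side, the GCLM and TXNRD1 stretches were identical at 19 of 29 bases, and each was identical to that of KEAP1 at 17 of 29. This likeness is that of the matches picked for it: the GCLM stretch was identical to the other TXNRD1 stretches, which are not printed, at 13 of 29 bases each, and to the other KEAP1 stretch at 9. The AP-1 match of OSGIN1 begins 97 bases before its start and touches no annotated exon of the gene. These are matches of letters and were not tested for binding.

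Expression was deposited as FPKM, a read count scaled by gene length and by library size, which allows levels of different genes to be compared, given the lengths used. Between 31008429 and 37624399 reads were counted on genes per library. Averaged over the 12 libraries, TXNRD1 (129 FPKM) and NQO1 (121 FPKM) had the highest levels of the 9 genes, followed by KEAP1 (20.4), NFE2L2 (10.1), GCLM (9.63), OSGIN1 (8.41), GCLC (7.59), HMOX1 (3.51) and SRXN1 (1.56). All 9 passed the filter of a mean of at least 0.1 FPKM. Depth was least for SRXN1, at 107 to 181 reads per library, and for HMOX1, at 202 to 367.

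HTRA2 mRNA was 7.28 FPKM in the knockdown libraries and 14.5 with TNF-α (log2 fold change −0.98, adjusted p = 2.8e-05). Knockdown library 2 stood apart: mitochondrial transcripts took 2.945% of its reads, against 4.207% and 4.5% in the other knockdown libraries, and its chi-squared per degree of freedom against them was 31.37 and 40.78, where the other pairs of libraries within a group gave 6.87 to 24.38. Of 8 markers listed for colon epithelium, 5 had a mean of at least 1 FPKM (EPCAM, CDH1, KRT8, KRT18 and KRT19). CDX2 was at 0 in every library, and VIL1 and KRT20 did not exceed 0.0332 FPKM. The colon origin is taken from the name of the cell line, and these levels do not show it. Of 8 markers of blood, stromal and endothelial cells, 2 reached a mean of 1 FPKM (COL1A1 and ACTA2), and the T cell marker CD3E was at 0. The sum of these 8 was 4.31 to 5.67 FPKM in the knockdown, against 1.75 to 2.45 with TNF-α, 2.25 to 2.78 with 5-OH-TMT and 1.93 to 2.23 in medium. Their part in the knockdown results below was not tested.

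With TNF-α alone, OSGIN1 was lower than in medium, and it was the only one of the 9 genes called, at an adjusted p under 0.05 in a limma fit over all 18079 genes tested. In this comparison 4.1% of all genes tested were called, and 0.885% were called lower. With 5-OH-TMT added to TNF-α, 0 of the 9 genes were called, where 0.0387% of all genes were. With HTRA2 knocked down under TNF-α, GCLM and TXNRD1 were lower than with TNF-α, so that 2 of the 9 genes were called. Of all genes 17.4% were called there and 8.08% were called lower. A fit to the 11185 genes with a mean of at least 1 FPKM called 3122, of which 1615 were lower, and the same number of members, 2 of 9. By the rule of the study for differentially expressed genes, a fold change of 2 or more and an unadjusted p of 0.05 or less, 0 of the 9 passed in any of the 3, beside 2.73%, 1.5% and 4.23% of all genes. Over the 9, the log2 fold changes had a median of −0.04, −0.03 and −0.16, beside −0.002, 0.000 and −0.003 for all genes tested. Fold changes are on the scale of log2(FPKM + 0.1), which understates differences of low genes such as SRXN1. All 3 comparisons share the TNF-α libraries.

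**Figure D1:**
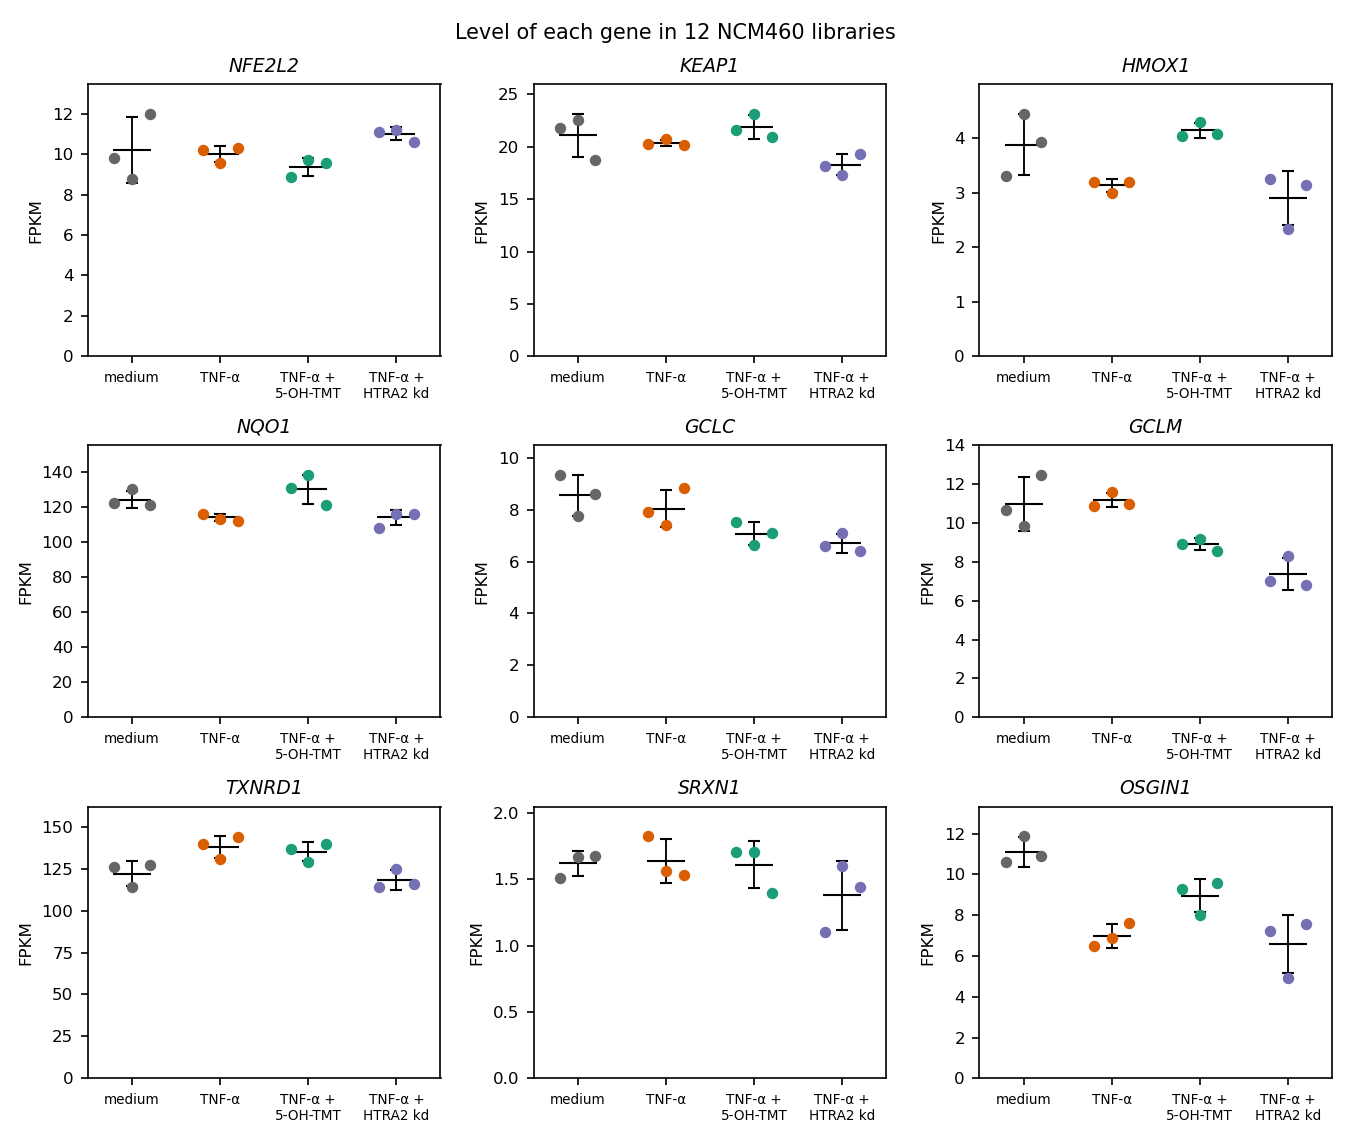
FPKM of each of the 9 genes (vertical axes, each from 0) in the 4 groups, with 1 point per library and a bar for the mean and SD of 3 libraries ("HTRA2 kd" is the HTRA2 knockdown). OSGIN1 lies highest in medium, from 10.6 to 11.9 FPKM, and GCLM lies lowest in the knockdown, from 6.82 to 8.30 FPKM.

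**Figure D2:**
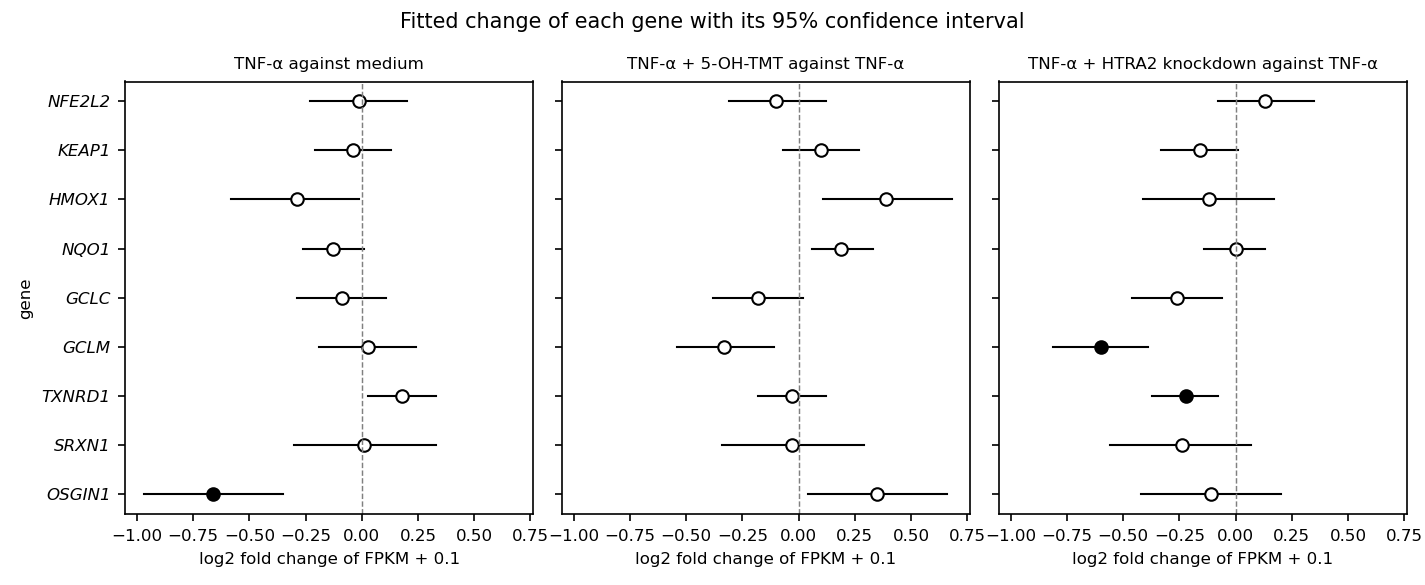
Log2 fold change of each gene (horizontal axis) with its 95% confidence interval from the limma fit, for the 3 comparisons, with filled points for genes called at an adjusted p under 0.05. Filled points are OSGIN1 with TNF-α, at −0.66, and GCLM and TXNRD1 in the knockdown, at −0.60 and −0.22.

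Unadjusted p-values under 0.05 were more frequent than calls and are given with their background. With TNF-α they were reached by 3 of the 9 genes, OSGIN1 and HMOX1 lower and TXNRD1 higher, where 14.8% of all genes did. With 5-OH-TMT 4 of the 9 did, HMOX1, NQO1 and OSGIN1 higher and GCLM lower, where 20.1% of all genes did. In the knockdown 3 of the 9 did, GCLC, GCLM and TXNRD1, all lower, where 31.1% of all genes did. In the knockdown the share of the members was thus close to that of all genes.

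Separation of the libraries was counted as well, as members whose 3 libraries of one group all lay above or all below the 3 of the other. With TNF-α against medium 1 member was higher in this way (TXNRD1) and 3 were lower (HMOX1, NQO1 and OSGIN1), where 11.1% and 8.74% of all genes were. With 5-OH-TMT against TNF-α 4 were higher (KEAP1, HMOX1, NQO1 and OSGIN1) and 1 was lower (GCLM), where 16.3% and 15.5% of all genes were. In the knockdown against TNF-α 1 was higher (NFE2L2) and 4 were lower (KEAP1, GCLC, GCLM and TXNRD1), where 17.5% and 16.4% of all genes were.

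The regulators come first. NFE2L2 (ENSG00000116044, minus strand of chromosome 2, 177227595 to 177392697) encodes NRF2 itself. Its level was 9.80, 8.79 and 12 FPKM in the medium libraries, 10.2, 9.57 and 10.3 with TNF-α, 8.87, 9.72 and 9.55 with 5-OH-TMT, and 11.1, 11.2 and 10.6 in the knockdown. The knockdown libraries were all above the TNF-α libraries, and the medium libraries held both the lowest and the highest value of all 12. None of the 3 comparisons gave a call: the log2 fold change was −0.01 with TNF-α (95% confidence interval −0.23 to 0.20), −0.10 with 5-OH-TMT (−0.31 to 0.12) and 0.13 in the knockdown (−0.08 to 0.35). Its exons share 1054 of 5979 bases with AC019080.1 on the same strand, and smaller stretches with the antisense genes AC079305.1 (190 bases) and AGPS (54 bases). The strand setting of the read counting is not given in the sources used here.

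KEAP1 (ENSG00000079999, minus strand of chromosome 19, 10486120 to 10503741) encodes the inhibitor of NRF2. It measured 21.8, 22.6 and 18.7 FPKM in medium, 20.3, 20.7 and 20.2 with TNF-α, 21.6, 23.1 and 20.9 with 5-OH-TMT, and 18.2, 17.3 and 19.3 in the knockdown. The 5-OH-TMT libraries all lay above the TNF-α libraries and the knockdown libraries all below them. Against TNF-α neither was called, with a log2 fold change of 0.10 (95% confidence interval −0.07 to 0.27) with 5-OH-TMT and −0.16 (−0.33 to 0.01) in the knockdown. Compared directly, KEAP1 was lower in the knockdown than with 5-OH-TMT (log2 fold change −0.26, SE 0.0776, adjusted p = 0.0443). This call was lost without knockdown library 2 (−0.22, adjusted p = 0.125) and without any other library of these groups except knockdown library 3. Of the 11 other settings 6 kept it.

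Since KEAP1 and NRF2 act as a pair, the ratio of their mRNAs was also taken within each library. KEAP1 over NFE2L2 was 2.23, 2.57 and 1.56 in medium, 1.98, 2.17 and 1.97 with TNF-α, 2.44, 2.38 and 2.18 with 5-OH-TMT, and 1.64, 1.54 and 1.81 in the knockdown. The 5-OH-TMT ratios were above those with TNF-α, with 2.18 and 2.17 at the nearest libraries, and the knockdown ratios were below them, while medium overlapped with all other groups. In either case the exact two-sided permutation test gave p = 0.1, the smallest value that 3 libraries against 3 allow.

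**Figure D3:**
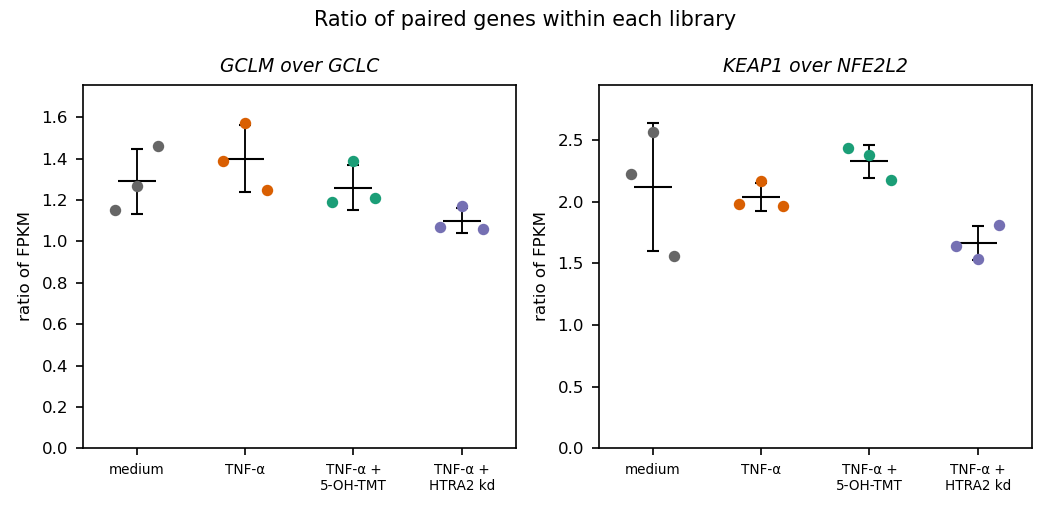
Ratio of FPKM within each library (vertical axes, from 0) for GCLM over GCLC and KEAP1 over NFE2L2, with 1 point per library and a bar for the mean and SD of 3 libraries. In both panels the knockdown libraries ("HTRA2 kd") lie below all TNF-α and 5-OH-TMT libraries, with means of 1.10 and 1.67.

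Of the 9 genes, GCLM had the largest difference between the knockdown and TNF-α. GCLC and GCLM encode the catalytic and the modifier subunit of glutamate-cysteine ligase, the enzyme of the rate-limiting step. GCLM (ENSG00000023909, minus strand of chromosome 1, 93885205 to 93909456) had levels of 10.7, 9.83 and 12.5 FPKM in medium and 10.9, 11.6 and 11 with TNF-α. It measured 8.94, 9.19 and 8.59 FPKM with 5-OH-TMT and 7.02, 8.30 and 6.82 in the knockdown. Every 5-OH-TMT and every knockdown library lay below every TNF-α and every medium library, and the knockdown libraries also lay below all 5-OH-TMT libraries. In bulk RNA, fewer cells that express a gene and less RNA per cell cannot be told apart.

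With HTRA2 knocked down GCLM was 7.38 ± 0.805 FPKM, against 11.2 ± 0.377 with TNF-α (SD, n = 3), and the log2 fold change was −0.60 (SE 0.0972, adjusted p = 0.00139). This call was kept under all 11 other settings and with each library left out in turn, and without knockdown library 2 the log2 fold change was −0.68 (adjusted p = 7.0e-04). Against medium the knockdown was also lower (log2 fold change −0.57, adjusted p = 0.00116). With 5-OH-TMT the difference from TNF-α was −0.33 (95% confidence interval −0.54 to −0.11), with an adjusted p of 0.122. A fit to only these groups gave an adjusted p of 0.0414, and no other setting called it. The direct comparison of the knockdown with 5-OH-TMT gave −0.27 (adjusted p = 0.0809), and −0.36 (adjusted p = 0.0357) without knockdown library 2. TNF-α against medium gave a log2 fold change of 0.03 for GCLM (95% confidence interval −0.19 to 0.24).

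GCLC (ENSG00000001084, minus strand of chromosome 6, 53497341 to 53616970) had levels of 9.34, 7.76 and 8.59 FPKM in medium, 7.89, 7.41 and 8.82 with TNF-α, 7.51, 6.63 and 7.09 with 5-OH-TMT, and 6.59, 7.11 and 6.40 in the knockdown. The order of the group means was the order in which they are given here, with overlap between each group and the next. The knockdown libraries were below every TNF-α library, with a log2 fold change of −0.26 (95% confidence interval −0.46 to −0.06, adjusted p = 0.0751), which is no call. Against medium the knockdown was lower by the test (log2 fold change −0.35, SE 0.0914, adjusted p = 0.0164), and it stayed so without knockdown library 2 (−0.39, adjusted p = 0.0163). The call was lost without medium library 1, knockdown library 1 or knockdown library 3, at adjusted p of 0.0529 to 0.0699. It was also lost at a fixed sum (0.105) and in a fit to only these groups (0.0565). GCLC shares 529 of its 8646 exon bases with AL033397.1 on the same strand.

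The ratio of GCLM to GCLC within a library was 1.15, 1.27 and 1.46 in medium, 1.39, 1.57 and 1.25 with TNF-α, 1.19, 1.39 and 1.21 with 5-OH-TMT, and 1.07, 1.17 and 1.06 in the knockdown. In FPKM the modifier subunit was thus above the catalytic subunit in all 12 libraries, while GCLM had fewer reads than GCLC in each. This order rests on the gene lengths used, 5420 bases for GCLM and 8646 for GCLC. The knockdown ratios lay below those of the TNF-α and the 5-OH-TMT libraries (exact permutation p = 0.1 in both cases, the smallest value possible) and overlapped with medium.

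In the thioredoxin arm, TXNRD1 (ENSG00000198431, plus strand of chromosome 12, 104215779 to 104350305) encodes the cytosolic thioredoxin reductase, which passes electrons from NADPH to thioredoxin. Its level was 126, 114 and 127 FPKM in medium, 140, 131 and 144 with TNF-α, 137, 129 and 140 with 5-OH-TMT, and 114, 125 and 116 in the knockdown. All TNF-α libraries were above all medium and all knockdown libraries, and the 5-OH-TMT libraries overlapped with those of TNF-α. TXNRD1 was lower in the knockdown than with TNF-α by a log2 fold change of −0.22 (SE 0.0679, adjusted p = 0.0401) and a fitted ratio of 0.856. This call was less stable than that of GCLM: it was kept under 5 of the 11 other settings, and it was lost when TNF-α library 1, TNF-α library 3, knockdown library 1 or knockdown library 3 was left out, with adjusted p up to 0.135. Without knockdown library 2 the log2 fold change was −0.27 (adjusted p = 0.0226). The difference between TNF-α and medium was 0.18 (95% confidence interval 0.03 to 0.33, adjusted p = 0.218), and the knockdown differed from medium by −0.05 (−0.19 to 0.10).

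SRXN1 (ENSG00000271303, minus strand of chromosome 20, 646615 to 653370) encodes sulfiredoxin, which repairs over-oxidised peroxiredoxins. It had the lowest level of the 9 genes, at 1.51, 1.67 and 1.68 FPKM in medium, 1.83, 1.56 and 1.53 with TNF-α, 1.71, 1.71 and 1.40 with 5-OH-TMT, and 1.10, 1.60 and 1.44 in the knockdown. All 4 groups overlapped. In the knockdown its log2 fold change against TNF-α was −0.24 (95% confidence interval −0.56 to 0.07), which was not called, and −0.35 without knockdown library 2 (adjusted p = 0.136). Of its 2698 exon bases 2292 are shared with AL121758.1 on the same strand, which was measured at 0.0069 FPKM, so how reads were split between them, and with it the level of SRXN1, is uncertain.

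HMOX1 and NQO1, which break down heme and reduce quinones, had their highest group mean with 5-OH-TMT, as did KEAP1. For HMOX1 and NQO1 the 5-OH-TMT libraries overlapped with medium. Against medium the log2 fold changes were 0.10 and 0.07 (limma adjusted p = 0.726 and 0.602). HMOX1 (ENSG00000100292, plus strand of chromosome 22, 35380361 to 35394214) encodes heme oxygenase 1. It measured 3.30, 4.43 and 3.92 FPKM in medium, 3.19, 3.00 and 3.20 with TNF-α, 4.03, 4.29 and 4.08 with 5-OH-TMT, and 3.25, 2.33 and 3.13 in the knockdown. The 5-OH-TMT libraries were above all TNF-α and all knockdown libraries, and the lowest value was that of knockdown library 2. With 5-OH-TMT the log2 fold change against TNF-α was 0.39 (95% confidence interval 0.11 to 0.68, adjusted p = 0.144), and a fit to only these groups gave an adjusted p of 0.0422. The knockdown was lower than 5-OH-TMT (−0.51, SE 0.131, adjusted p = 0.0231) and than medium (−0.41, adjusted p = 0.0383). Neither call held without knockdown library 2, where the values were −0.36 (adjusted p = 0.068) and −0.27 (adjusted p = 0.118). The call against 5-OH-TMT was also lost without any 1 of the 5-OH-TMT libraries, and the call against medium without medium library 2 or 3. Of the 11 other settings with all libraries, 7 kept the call against medium, and the 4 that lost it gave adjusted p of 0.0568 to 0.158. Against TNF-α the knockdown gave −0.12, and 0.03 without that library.

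NQO1 (ENSG00000181019, minus strand of chromosome 16, 69706996 to 69726951) encodes a quinone reductase that is widely used as a readout of NRF2. Its level was 122, 130 and 121 FPKM in medium, 116, 113 and 112 with TNF-α, 131, 138 and 121 with 5-OH-TMT, and 108, 116 and 116 in the knockdown. The TNF-α libraries lay below all medium and all 5-OH-TMT libraries and overlapped with the knockdown. The log2 fold change was −0.13 with TNF-α (95% confidence interval −0.26 to 0.01) and 0.19 with 5-OH-TMT against TNF-α (0.06 to 0.33, adjusted p = 0.139), and neither was called. In the knockdown the interval was −0.14 to 0.13. NQO1 had the narrowest intervals of the 9 genes, at 11489 to 15982 reads per library, though TXNRD1 had more reads (24447 to 36081). NQO1 shares 575 of 3254 exon bases with the antisense gene AC092115.2, which is listed at 0 in every library.

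OSGIN1 (ENSG00000140961, plus strand of chromosome 16, 83948282 to 83966332), oxidative stress induced growth inhibitor 1, had the widest range of group means, 0.77 on the log2 scale, against 0.60 for GCLM, 0.51 for HMOX1 and 0.20 to 0.35 for the other members. Without knockdown library 2 this order changed, with 0.68 for GCLM and 0.66 for OSGIN1. Its level was 10.6, 11.9 and 10.9 FPKM in medium, 6.48, 6.88 and 7.62 with TNF-α, 9.26, 8.02 and 9.56 with 5-OH-TMT, and 7.23, 4.93 and 7.59 in the knockdown. Medium was above all other libraries, and the 5-OH-TMT libraries lay between medium and TNF-α without overlapping either. TNF-α against medium gave 6.99 ± 0.580 against 11.1 ± 0.725 FPKM (SD, n = 3), and the log2 fold change was −0.66 (SE 0.142, adjusted p = 0.0195). The call was kept under 10 of the 11 other settings, all but eBayes without trend (adjusted p = 0.0519). It was also lost when medium library 2, medium library 3, TNF-α library 1 or TNF-α library 2 was left out, with log2 fold changes of −0.61 to −0.68 and adjusted p of 0.0525 to 0.0863. The difference between 5-OH-TMT and TNF-α was 0.35 (95% confidence interval 0.04 to 0.66, adjusted p = 0.204), which is no call.

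In the knockdown OSGIN1 was lower than in medium (log2 fold change −0.77, adjusted p = 0.00197), a call that held under all other settings and with each library left out, and it was −0.58 (adjusted p = 0.00169) without knockdown library 2. It was also lower than with 5-OH-TMT (−0.46, adjusted p = 0.0492), but at −0.27 without that library this was no longer called (adjusted p = 0.117), nor without any other library except knockdown library 3. Of the 11 other settings 4 kept it. Against TNF-α the knockdown gave −0.11, and 0.08 without that library. OSGIN1 shares 481 of 3460 exon bases with AC009119.2 on the same strand.

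The genes most like OSGIN1 were sought among 11176 genes with a mean of at least 1 FPKM, by the root mean square difference of their log2 values over the 12 libraries after each gene was centred on its own mean. They were THEM6 (0.123), ALPP (0.124), HR (0.134), PLEKHH3 (0.146) and TIMP4 (0.147), where OSGIN1's own root mean square around its mean was 0.343. ALPP, which encodes placental alkaline phosphatase, averaged 49.4 FPKM in medium, 34.8 with 5-OH-TMT, 28.6 with TNF-α and 26.2 in the knockdown. TIMP4, an inhibitor of metalloproteinases, averaged 10.3, 9.84, 7.19 and 7.44 in the same order. The member most like OSGIN1 was HMOX1, at 0.198, and the least like was NFE2L2, at 0.41. These are descriptions over libraries that share groups, with no test.

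When the 4 group means of each gene were put in order, no neighbouring groups differed for any of the 9 genes, at adjusted p of 0.0809 or more. The knockdown had the lowest mean for 8 of the 9, where it was lowest for 31.4% of all genes, and for 6 of the 9 without knockdown library 2 (32.3% of all genes), HMOX1 and OSGIN1 being the exceptions. The mean of NQO1 was 114 FPKM both in the knockdown and with TNF-α. The remaining pairs of groups were compared too, a choice made after the values were seen. Against medium, the knockdown was lower for GCLM, GCLC, HMOX1 and OSGIN1, 4 of the 9, where 24.3% of all genes were called and 11.4% were called lower. Against 5-OH-TMT it was lower for KEAP1, HMOX1 and OSGIN1, 3 of the 9, where 15.3% were called and 7.43% were called lower. TNF-α with 5-OH-TMT against medium gave 0 calls among the 9, where 6.55% of all genes were called, and 3 at an unadjusted p under 0.05, where 21% of all genes were. The range for 5-OH-TMT against medium was −0.31 for OSGIN1 to 0.15 for TXNRD1.

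Another 46 genes of the NRF2 pathway were listed by role, of which 42 passed the filter. With TNF-α 6 of the 42 were called, 5 higher and 1 lower, where 3.22% and 0.885% of all genes were. With the filter at a mean of 1 FPKM, 7 of 40 were called, 6 higher and 1 lower. Of the 11185 genes there, 601 were called higher and 167 lower, so the background share was larger. The 6 called among the 42 were mostly regulators. MAFF, a small MAF partner of NRF2, rose from 2.28 to 5.17 FPKM (log2 fold change 1.15, adjusted p = 3.0e-05). SQSTM1, the autophagy receptor that sequesters KEAP1, rose from 46.1 to 73.0 FPKM (0.67, adjusted p = 2.8e-04), and GSK3B, a kinase that marks NRF2 for breakdown, from 11.6 to 18.6 FPKM (0.67, adjusted p = 6.6e-04). The aldo-keto reductase AKR1B1 rose from 41.8 to 65.0 FPKM (0.64, adjusted p = 0.00145). IDH1, a cytosolic source of NADPH, fell from 42.4 to 28.3 FPKM (−0.58, adjusted p = 8.3e-04). By role, 4 of 10 regulators and partners were called, all higher, against 0 of 9 for glutathione, 0 of 4 for thioredoxin and peroxiredoxin, 1 of 6 for NADPH supply, 0 of 4 for heme and iron and 1 of 9 for carbonyl and xenobiotic metabolism.

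With 5-OH-TMT added to TNF-α 0 of the 42 were called, and 18 had an unadjusted p under 0.05, 15 of them higher, where 9.6% of all genes were. The median log2 fold change of the 42 was 0.09, beside 0.000 for all genes tested. A fit to only these groups called 7 of the 42 and limma-voom on the reads recovered from the FPKM called 4, all of them higher. The largest median was that of heme and iron handling, 0.31 over 4 genes. NADPH supply had 4 of 6 genes higher at an unadjusted p under 0.05 and 1 lower, ME1. In the fit to all 4 groups, none of these values passed the adjusted threshold.

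With HTRA2 knocked down 15 of the 42 were called, 35.7% beside 17.4% of all genes. Of the 15, 10 were higher and 5 lower, where 9.35% and 8.08% of all genes were. With the filter at a mean of 1 FPKM, 14 of 40 were called, where 3122 of 11185 genes were. Among genes of that level the background share was thus larger than 17.4%. With values rescaled to a fixed sum the split was 12 higher and 3 lower, and without TNF-α library 1, TNF-α library 3 or knockdown library 1 it was 8 higher and 2 lower. It was also 8 and 2 with no filter, 9 and 2 in a fit to only these groups, and 8 and 3 without trend. Which of the genes named below lost the call in these fits was not examined. The genes that fell included SLC7A11, the cystine carrier that supplies glutathione synthesis, at 8.59, 6.78 and 9.31 FPKM with TNF-α and 4.71, 6.03 and 4.51 in the knockdown (log2 fold change −0.68, adjusted p = 0.0181). No knockdown library reached the TNF-α range. Ferritin light chain FTL fell from 2820 to 2060 FPKM (−0.46, adjusted p = 0.0122), peroxiredoxin PRDX1 from 293 to 214 (−0.46, adjusted p = 7.1e-04) and thioredoxin TXN from 393 to 317 (−0.32, adjusted p = 0.0397). By list, the 5 that fell lay in glutathione supply, use and export, in thioredoxin and peroxiredoxin, and in heme and iron handling. FTL and PRDX1 have processed pseudogenes that can take up their reads.

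Among the 10 that rose, BACH1, a repressor that competes with NRF2 at AREs, measured 4.74, 3.59 and 4.43 FPKM with TNF-α and 6.37, 7.70 and 6.58 in the knockdown (log2 fold change 0.68, adjusted p = 0.00411). Glutaredoxin GLRX rose from 1.49 to 2.55 FPKM (0.73, adjusted p = 8.0e-04). AKR1C2 rose from 0.651 to 1.43 FPKM (1.03, adjusted p = 0.0072) and AKR1C3 from 1.56 to 3.28 FPKM (1.03, adjusted p = 4.5e-04). AKR1C2 and AKR1C3 belong to a family of closely related genes, so the split of reads within it is uncertain. By role, 3 of 10 regulators and partners were called, all higher, 4 of 9 for glutathione with 2 in each direction, 3 of 4 for thioredoxin and peroxiredoxin with 2 lower, 1 of 6 for NADPH supply, 1 of 4 for heme and iron, and 3 of 9 for carbonyl and xenobiotic metabolism, all higher. Without knockdown library 2 the count was 17, of which 13 were higher.

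**Figure D4:**
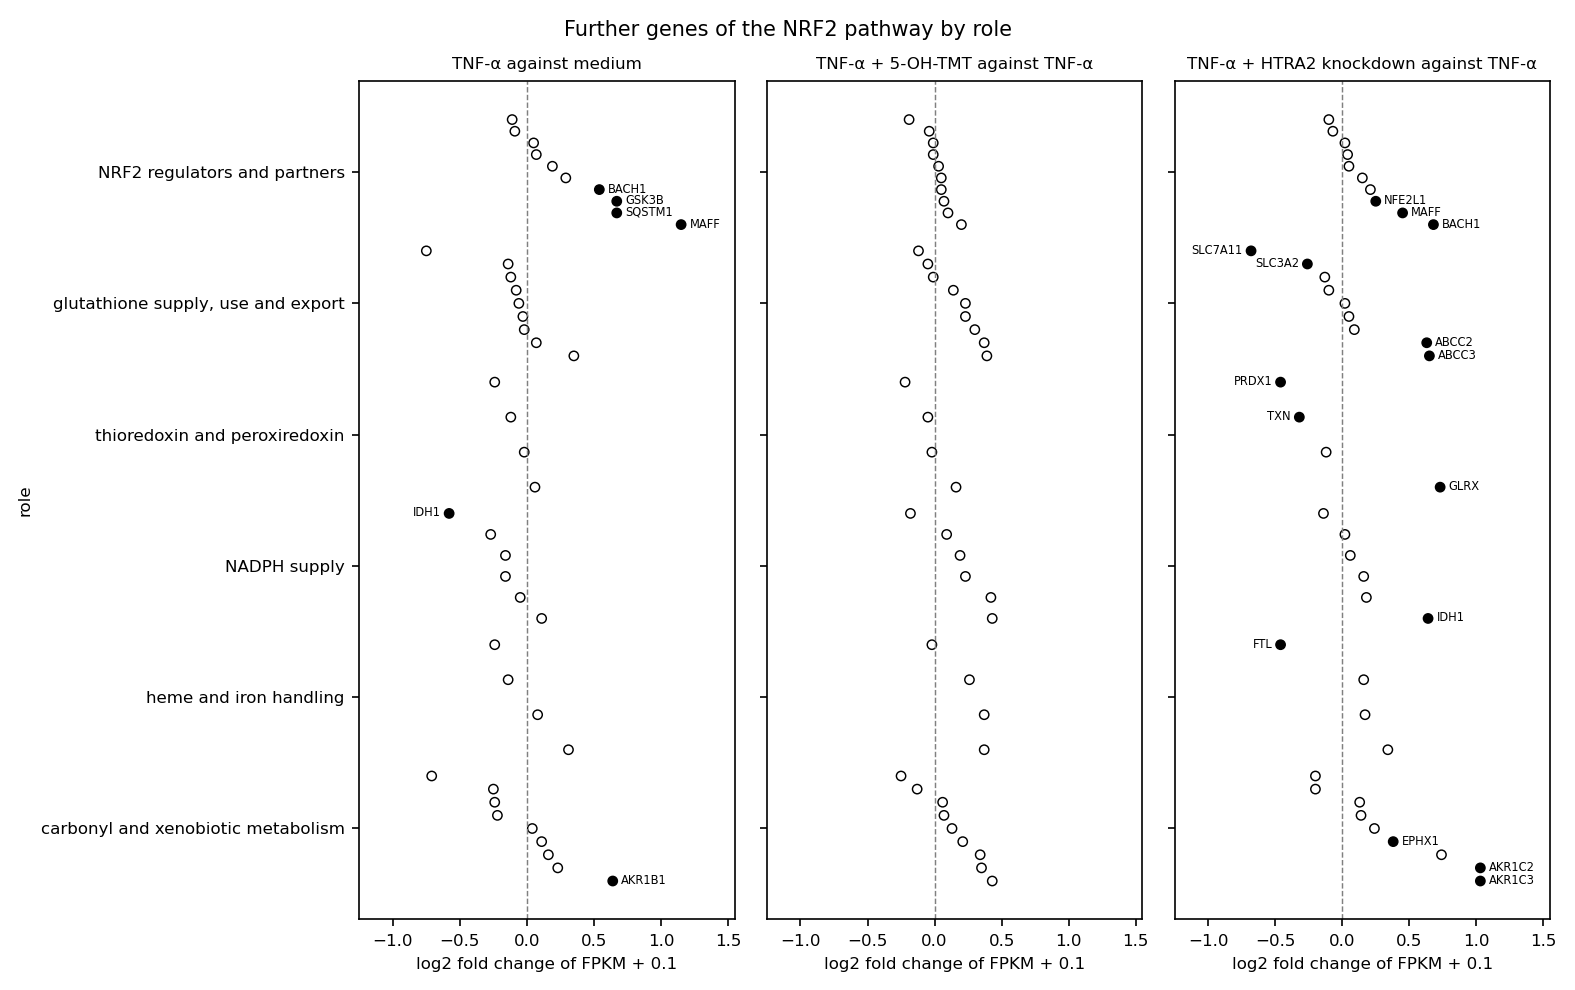
Log2 fold change (horizontal axis) of the 42 further NRF2 pathway genes, grouped by role on the vertical axis and spread within a role only to separate the points, for the 3 comparisons. Filled, named points are called at an adjusted p under 0.05: 15 in the knockdown, 6 with TNF-α and 0 with 5-OH-TMT. In the knockdown 10 lie to the right of 0 and 5 to the left.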

How the data were processed

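RNA of 12 NCM460 libraries was analysed, 3 per group, with groups taken from the labels. The authors' libraries were poly(A)-selected, and the submitters' processing notes name CASAVA 1.8, HISAT2 2.0.4, HTSeq 0.9.1 and hg38, with no roles or order. The deposited values are FPKM, in 1 table that also holds gene lengths and coordinates. The divisor, the counting mode and its strandedness are not given in the sources used here. All 58735 genes had the coordinates of GENCODE 29 (GRCh38). Multiplied by gene length and divided by 1 step per library, 100% of values came to whole reads (tolerance 0.01), from 31008429 to 37624399 per library.

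For all 4 groups together, log2(FPKM + 0.1) was modelled by limma 3.58.1 in R 4.3.3, with group as the term and eBayes with a mean-variance trend. It covered the 18079 genes with a mean of at least 0.1 FPKM over the 12 libraries, with 8 residual degrees of freedom. Tests were two-sided with Benjamini-Hochberg adjustment over all genes tested, and a gene was called at an adjusted p under 0.05. Ratios were compared by an exact permutation test. The fit was tested on simulated data with changes larger than those of the members, so that test does not show how well small changes are called. Summaries were made with Python 3.11.15, pandas 2.3.3 and SciPy 1.17.1. The DEG rule of the study (fold change of 2 or more, unadjusted p of 0.05 or less) was counted beside it.

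The members, the 46 further pathway genes, the marker lists and the tests were chosen with earlier results of these data known. Named were all members, HTRA2, of the pathway list up to 4 called genes per direction and comparison with the largest change, the 5 genes nearest to the member with the widest range, and ME1, chosen after its value was seen. Alternatives were pseudocounts of 1 and 0.01, no filter, a filter at 1 FPKM, 3 rescalings (median of ratios, quantile normalization, fixed sum), fits restricted to the pair of groups in question, eBayes without trend, a replicate block, limma-voom on the recovered reads, and each library left out. Comparisons of groups other than the 3 of the design, and the ranges and lowest group means without knockdown library 2, were added after the values were seen.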

Additional observations from a re-analysis of the deposited data

How the results depend on the processing

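Over the 11 alternatives with all libraries, the 9 genes in 6 comparisons gave 594 log2 fold changes, of which 554 kept direction and call, 26 lost the call, 4 gained one and 10 changed sign. With 1 library left out there were 324, of which 269 kept both, 28 lost the call, 6 gained one and 21 changed sign. In TNF-α against medium the call of OSGIN1 was lost without the trend, giving 0 called members, and with a library left out the count ran from 0 to 1. The count of all genes called there was 392 in a fit to only the groups compared (742 in all 4 groups). In 5-OH-TMT against TNF-α a fit to only these groups called 2 members, 7 pathway genes and 911 of all genes, and limma-voom called 0 members, 4 pathway genes and 338 of all genes. There, 7 genes of all were called as reported, 3 with a pseudocount of 1, 127 with the filter at 1 FPKM, 4 after quantile normalization, 15 at a fixed sum, 1 without trend, and 1 to 5 with a library left out. In the knockdown against TNF-α 1 member in place of 2 was called with no filter, after quantile normalization, at a fixed sum, in the fit to only these groups and without trend, and 1 to 2 with a library left out. Pathway genes called there numbered 10 to 18 over all alternatives. All genes called there numbered 3152, and ran from 2015 to 3337 with a library left out, lowest without knockdown library 1 (2015) and TNF-α library 2 (2062). Among the pairs added later, 5-OH-TMT against medium had 0 to 2 members called with a library left out, the 2 being GCLC (−0.34, limma adjusted p = 0.0478) and GCLM (−0.38, 0.0375) without medium library 2. The knockdown against medium had 2 in the fit to only these groups, and the knockdown against 5-OH-TMT had 1 with no filter, at a fixed sum and without trend, 0 in the fit to only these groups, and 0 to 3 with a library left out. For the calls lost here the cause was not tested.

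Sign changes were seen for values near 0, none of them called. With all libraries, NFE2L2 in TNF-α against medium went to 0.00 at a fixed sum and GCLM to −0.01 after quantile normalization. NQO1 in the knockdown against TNF-α went to 0.00 with the median of ratios and with limma-voom, 0.01 after quantile normalization and 0.04 at a fixed sum. SRXN1 went to 0.00 after quantile normalization in 5-OH-TMT against TNF-α and against medium. At a fixed sum TXNRD1 in the knockdown against medium was 0.01 and GCLC in the knockdown against 5-OH-TMT was 0.00. With a library left out, the lowest and highest values of the genes whose sign changed in TNF-α against medium were −0.11 and 0.11 for NFE2L2, −0.12 and 0.01 for KEAP1, −0.05 and 0.12 for GCLM and −0.06 and 0.06 for SRXN1. In 5-OH-TMT against TNF-α they were −0.07 and 0.00 for TXNRD1 and −0.07 and 0.06 for SRXN1. In the knockdown against TNF-α they were −0.21 and 0.03 for HMOX1, −0.02 and 0.03 for NQO1 and −0.22 and 0.08 for OSGIN1. In 5-OH-TMT against medium they were −0.21 and 0.01 for NFE2L2, −0.03 and 0.11 for KEAP1, −0.01 and 0.20 for HMOX1 and −0.06 and 0.07 for SRXN1.

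The replicate numbers did not pair the libraries (correlations of deviations of −0.052 to 0.038 over the numbers). With the replicate block 1 of 9 members was called in TNF-α against medium, 0 with 5-OH-TMT, 1 in the knockdown against TNF-α, 3 in the knockdown against medium (4 without the block), and 1 in the knockdown against 5-OH-TMT, and 1 gene of all was called with 5-OH-TMT.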
